A study of Mus musculus with 2 samples.

Results

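Divergent promoters of protein-coding gene pairs were examined in DNase-seq data from the mouse urinary bladder. A pair was counted where a minus-strand gene began upstream of a plus-strand gene and the 5′ ends of their gene bodies lay at most 1000 bp apart in GENCODE M21. The window of a pair ran between both transcription start sites (TSSs) and 500 bp into each gene. There were 754 such pairs, and their 1487 genes made up 6.78% of the 21938 protein-coding genes. In 42 pairs a gene also belonged to another pair, and merging the overlapping windows left 733 separate loci. The TSSs were a median of 129 bp apart (quartiles 67 and 240 bp, range 1 to 987 bp). For comparison, 19556 genes with no protein-coding 5′ end on the other strand nearby had a one-way window of 1130 bp, the median length of the divergent windows.

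DNase-seq sequences the ends of fragments that DNase I frees from nuclei, so that its peaks mark accessible chromatin. The tissue came from B6CASTF1/J female mice at 4 days of age, a cross of C57BL/6J with the wild-derived CAST/EiJ strain. Both biological replicates belonged to a single group, were different females that share 1 donor label, and no treatment is given. With a single group of 2 samples there was no contrast to test, so all values below are descriptions, and differences between classes of windows are set beside the replicate values.

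In mammals, many housekeeping genes lie head to head and share a stretch of DNA from which RNA polymerase II starts on both strands. Such promoters are commonly rich in CpG dinucleotides, usually lack a TATA box and carry sites for general activators such as ETS proteins, NRF1, NF-Y and SP/KLF proteins. The paired genes often serve in DNA repair, mitochondria, protein synthesis or chromatin, and replication-dependent histone genes H2A and H2B are a classic paired arrangement.

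The sequences of 7 divergent promoters show the kinds described below: the tallest (Hjurp/Trpm8), the tallest of the ribosomal and chaperone genes (Med22/Rpl7a and Dnajb4/Fubp1), paired NRF1 and CREB/ATF matches (Polh/Xpo5 and Larp7/Zgrf1), the tallest histone pair and a pair without a peak (Best1/Rab3il1). Each runs 5′ to 3′ on the plus strand of mm10, from 60 bp inside the minus-strand gene to 60 bp inside the plus-strand gene (55 bp for the histone pair). Capitals mark bases that lay in a footprint of each replicate, a footprint being a short protected stretch that the authors called within accessible DNA.
Hjurp/Trpm8 (chr1:88277573-88277721, plus strand): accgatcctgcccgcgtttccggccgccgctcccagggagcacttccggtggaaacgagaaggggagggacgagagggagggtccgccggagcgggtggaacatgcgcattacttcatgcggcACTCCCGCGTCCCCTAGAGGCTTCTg
Med22/Rpl7a (chr2:26910617-26910824, plus strand): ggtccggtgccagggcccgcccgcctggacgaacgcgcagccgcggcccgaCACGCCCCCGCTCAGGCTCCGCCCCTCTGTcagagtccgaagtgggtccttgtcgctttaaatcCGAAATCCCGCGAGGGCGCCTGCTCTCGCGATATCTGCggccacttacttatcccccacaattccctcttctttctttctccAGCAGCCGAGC
Dnajb4/Fubp1 (chr3:152210242-152210482, plus strand): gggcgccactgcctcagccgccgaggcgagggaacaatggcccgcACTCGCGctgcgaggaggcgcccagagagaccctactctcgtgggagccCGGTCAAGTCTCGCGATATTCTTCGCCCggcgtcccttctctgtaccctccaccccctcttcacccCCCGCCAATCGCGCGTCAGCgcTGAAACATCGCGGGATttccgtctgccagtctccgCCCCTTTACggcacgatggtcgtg
Polh/Xpo5 (chr17:46202585-46202842, plus strand): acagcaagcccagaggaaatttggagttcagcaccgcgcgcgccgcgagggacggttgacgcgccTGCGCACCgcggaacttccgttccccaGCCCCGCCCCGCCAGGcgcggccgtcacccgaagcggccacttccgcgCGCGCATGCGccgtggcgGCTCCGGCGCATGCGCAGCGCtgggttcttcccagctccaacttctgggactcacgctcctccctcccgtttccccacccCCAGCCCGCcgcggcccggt
Larp7/Zgrf1 (chr3:127553289-127553549, plus strand): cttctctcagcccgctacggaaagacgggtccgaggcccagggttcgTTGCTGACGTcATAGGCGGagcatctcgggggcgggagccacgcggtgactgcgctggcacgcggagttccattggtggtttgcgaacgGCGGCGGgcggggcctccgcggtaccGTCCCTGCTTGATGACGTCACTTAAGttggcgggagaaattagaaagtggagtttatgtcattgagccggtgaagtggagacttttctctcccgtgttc
Hist1h2bf/Hist1h2ad (chr13:23574141-23574436, plus strand): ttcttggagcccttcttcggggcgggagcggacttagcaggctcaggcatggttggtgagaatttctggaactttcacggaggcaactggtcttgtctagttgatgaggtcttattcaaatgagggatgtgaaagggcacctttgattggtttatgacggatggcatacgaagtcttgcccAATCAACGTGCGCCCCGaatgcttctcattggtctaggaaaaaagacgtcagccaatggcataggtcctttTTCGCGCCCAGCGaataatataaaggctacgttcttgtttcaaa
Best1/Rab3il1 (chr19:10001573-10001729, plus strand): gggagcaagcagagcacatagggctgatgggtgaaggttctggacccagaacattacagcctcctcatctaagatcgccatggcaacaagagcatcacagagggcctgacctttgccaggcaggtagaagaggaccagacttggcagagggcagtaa

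The Hjurp/Trpm8 footprint in capitals covered the same 25 bases in both replicates, and its letters include CCCCTAGAGG, which matches the 10-base CTCF core that was searched. Footprints of Med22/Rpl7a and Dnajb4/Fubp1 both held the letters TCTCGCGA, which begin the known motif of BANP and ZBTB33. In Dnajb4/Fubp1 a further footprint held CCAAT, the NF-Y motif. At Polh/Xpo5, which encodes a translesion DNA polymerase and the exporter of microRNA precursors, 2 copies of the 10-base NRF1 palindrome, at positions 142 to 151 and 165 to 174 of the printed sequence, had their centres in separate footprints. Larp7/Zgrf1, whose products bind 7SK RNA and act as a helicase, held 2 copies of the CREB/ATF palindrome TGACGTCA, and the centre of each lay in a footprint of both replicates. No base of the Best1/Rab3il1 stretch lay in a footprint of either replicate.

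Nearly all divergent promoters were open. A peak was found in both replicates at 712 of 754 divergent windows (94.4%), against 10268 of 19556 one-way windows (52.5%) and 54.1% of all windows of both classes. Replicate 1 had a peak in 720 divergent windows and replicate 2 in 717. Only 13 pairs (1.72%) were open in a single replicate, compared with 6.04% of one-way windows, and 29 (3.85%) in neither, compared with 41.5%. Footprints were called in both replicates in 708 divergent windows (93.9%) and in 50.3% of one-way windows, with 52% over both classes. One-way genes with a noncoding gene starting upstream on the other strand numbered 871 and lay between the classes, with 80.8% open in both.

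Peaks at divergent promoters were also taller. The height is the signal that the authors deposited for each peak, on a scale not stated for the peak lists, and the tallest peak stood for a window. Its median was 3.72 in replicate 1 (quartiles 2.62 and 5.00) and 2.79 in replicate 2 (1.89 and 3.63) at open divergent windows. At open one-way windows the medians were 2.15 and 1.61, and with a noncoding partner 3.04 and 2.26. The median of the mean of both replicates was 0.70 higher on the log2 scale at divergent than at one-way windows. Heights were whole multiples of a small step within each library, and the median pair corresponded to 798 steps in replicate 1. If each step is taken as a single independent count, the exact 95% Poisson interval is 3.46 to 3.98 in height and covers counting error only. What a step counts is not stated, and that assumption was not tested. In bulk tissue, more cells with an open promoter and a more open promoter per cell cannot be told apart.

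**Figure D1:**
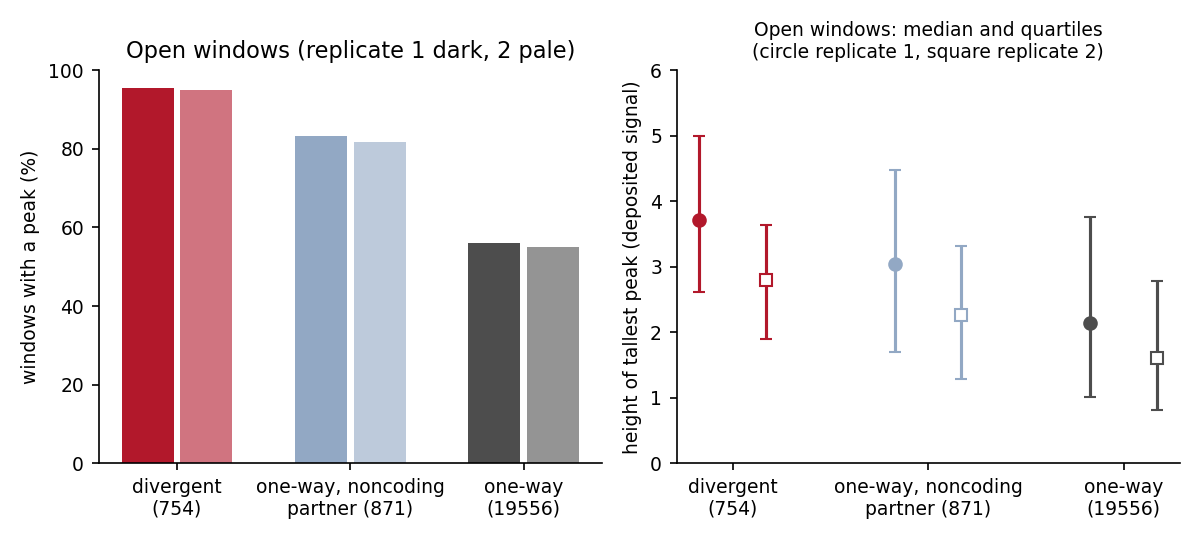
Left, percent of windows with a peak in each replicate for divergent promoters, one-way promoters with a noncoding partner and all one-way promoters; right, median height of the tallest peak in open windows with bars from the lower to the upper quartile. Divergent promoters had the highest shares (95.5% and 95.1%) and the highest medians (3.72 and 2.79), while their quartile ranges overlapped those of one-way promoters.

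Low peaks were uncommon among the pairs. A mean height under 1 was found at 23 of 712 divergent windows open in both (3.23%) and at 23.9% of one-way windows open in both. Peak widths did not separate the classes, with medians of 240 and 220 bp in replicates 1 and 2 for both. A median of 883.5 bases per divergent window in replicate 1 and 686 in replicate 2 had a listed false discovery rate of at most 0.05, against 261 and 192 bases per one-way window. These medians were taken over all windows, including the 3.85% of divergent and 41.5% of one-way windows that were closed in both replicates.

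Open divergent windows held a median of 8 footprints in replicate 1 and 6 in replicate 2, and open one-way windows 6 and 4. Per 100 bases of peak this was 2.12 and 1.64 footprints at divergent and 1.66 and 1.36 at one-way windows. Footprint number moved with height, so it was also read within quartiles of divergent height. In the lowest quartile the medians were 7 and 4 at divergent and 5 and 3 at one-way windows, in the next 8 and 6 against 6 and 5, in the third 7 and 6 against 7 and 5, and in the highest 9 and 7 against 8 and 6. The lowest quartile does not compare equal heights. It held 178 divergent and 5809 one-way windows (56.6% of those open in both), of which 23 and 2451 had a mean height under 1. Of the 5806 footprints of replicate 1 in divergent windows open in both, 53.2% overlapped a footprint of replicate 2, and of the 4283 of replicate 2, 75.7% overlapped one of replicate 1. The corresponding one-way shares were 49.0% and 70.1%.

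Base composition differed between the classes and moved with openness. Divergent windows had a median GC content of 59.4% and an observed over expected CpG ratio of 0.761, and one-way windows 52.9% and 0.468. Under a ratio of 0.25, only 1 of 18 divergent windows was open in both replicates (5.56%), beside 4.20% of one-way windows. A further 3 divergent windows (16.7%) were open in a single replicate, against 5.20% of one-way windows. Between 0.25 and 0.5, 19 of 33 were open (57.6%) against 39.2%. From 0.5 to 0.75 the shares were 97.6% and 87.4%, and at 0.75 or more 99% and 94.9%. A ratio of at least 0.5 was found in 703 of 754 divergent windows and in 9338 of 19556 one-way windows.

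Divergent medians of height were higher in the 3 CpG classes from 0.25 upward. Among CpG-rich windows with a ratio of at least 0.75, the divergent medians were 3.96 and 2.97 in replicates 1 and 2, and the one-way medians 3.12 and 2.35. Between 0.5 and 0.75 they were 3.40 and 2.62 against 2.24 and 1.65, and between 0.25 and 0.5 2.04 and 1.40 against 0.973 and 0.771. Under 0.25 the order differed between replicates, with 0.433 over 3 open divergent windows against 0.610 in replicate 1 and 0.582 over 2 against 0.517 in replicate 2. Classes of GC content were cut at the quartiles of the divergent windows, so the lowest class held 12160 of the 19556 one-way windows. Within these classes the open shares were 85.7%, 94.1%, 98.9% and 98.9% at divergent windows, from the lowest to the highest class. At one-way windows they were 32%, 80.1%, 89.2% and 90.8%. The lowest class does not compare equal composition, since its median GC content was 53.3% at divergent and 48.0% at one-way windows. Its CpG ratio was also higher at divergent windows. In each of the 4 GC classes the median height of divergent windows, from 2.88 to 3.55, was above the one-way median, from 1.71 to 2.35.

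**Figure D2:**
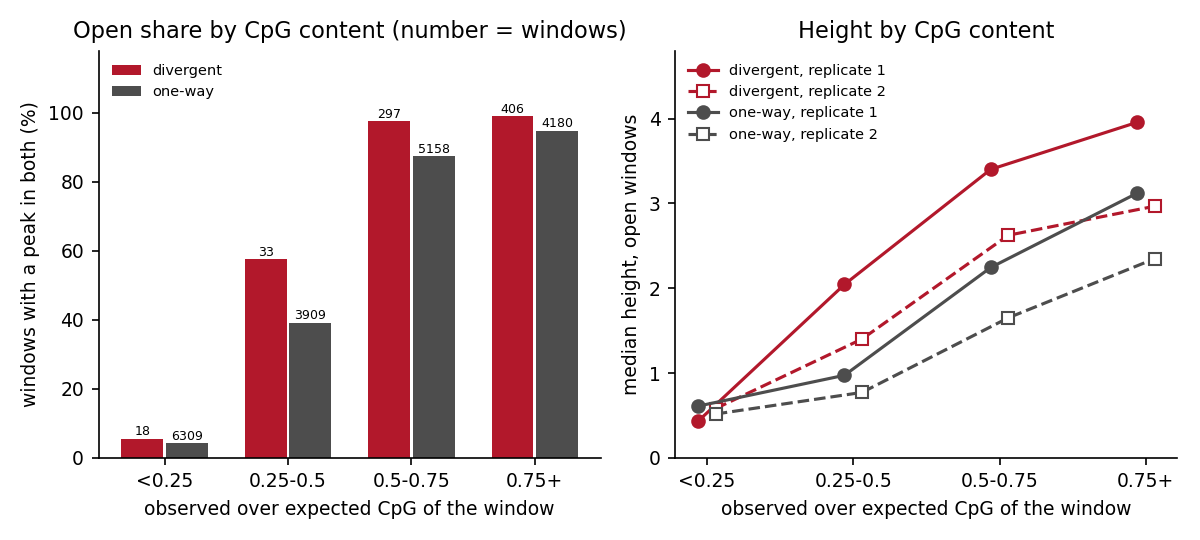
Left, percent of windows with a peak in both replicates by the observed over expected CpG ratio of the window, with the number of windows above each bar; right, median height of open windows in each replicate by the same classes. Both classes were mostly closed below 0.25 and mostly open above 0.5, and from 0.25 upward the divergent medians lay above the one-way medians of the same replicate.

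Openness varied little with the distance between the TSSs. The share open in both was 96.5% of 312 pairs at 1 to 100 bp, 93.2% of 206 up to 200 bp, 92% of 100 up to 300 bp, 97.0% of 66 up to 500 bp and 90% of 70 up to 1000 bp. Median mean heights in these classes were 3.15, 3.29, 3.59, 3.75 and 3.23. Across the 712 open pairs, distance and log2 height had a Pearson correlation of -0.04 and a Spearman correlation of 0.08. Just inside the 1000 bp limit, 10 of 11 pairs at over 900 bp were open with a median of 2.98, and just outside it, 10 of 12 pairs at up to 1100 bp were open with a median of 2.61.

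The tallest peak usually sat between the TSSs. Its centre lay between them in 453 of 720 open windows in replicate 1 (62.9%) and in 463 of 717 in replicate 2 (64.6%). The remainder was split evenly, with 134 inside the minus-strand gene and 133 inside the plus-strand gene in replicate 1 and 123 and 131 in replicate 2. A single peak covered both TSSs in 91.4% and 93.0% of open pairs at up to 100 bp, in 23.2% and 23.9% at over 200 and up to 300 bp and in none beyond 500 bp. Windows with 2 or more peaks made up 30.8% and 39.5% of the closest class and 74.6% and 78.5% of the widest. Footprints were concentrated in the same stretch. Of all footprints in open divergent windows, 36.3% and 41.6% had their centre between the TSSs. That stretch made up 16.1% and 16.2% of the window. Footprints are called within accessible DNA, and the tallest peak usually lay there too. The share of peak bases between the TSSs was not computed, so these values do not separate footprint position from peak position.

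Cover by peaks was central in close pairs and lay to both sides of the midpoint in distant pairs. At up to 100 bp, peaks covered the point next to the midpoint in up to 92% and 92.6% of windows, and cover stayed above a 50% level of that maximum over 230 and 200 bp. At over 300 bp apart, cover at the midpoint was 32.4% and 27.2%, below maxima of 54.4% and 53.7% that lay 160 and 190 bp to the minus-strand side. Of the 70 pairs over 500 bp apart, 42 in replicate 1 and 43 in replicate 2 had a peak within 250 bp of both TSSs. A peak at the minus-strand TSS alone was found in 13 and 10, at the plus-strand TSS alone in 7 and 11, and at neither in 8 and 6. Srgap2/Fam72a, whose starts lie 551 bp apart, had 4.74 and 3.40 at the minus-strand start and 3.07 and 2.21 at the other.

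**Figure D3:**
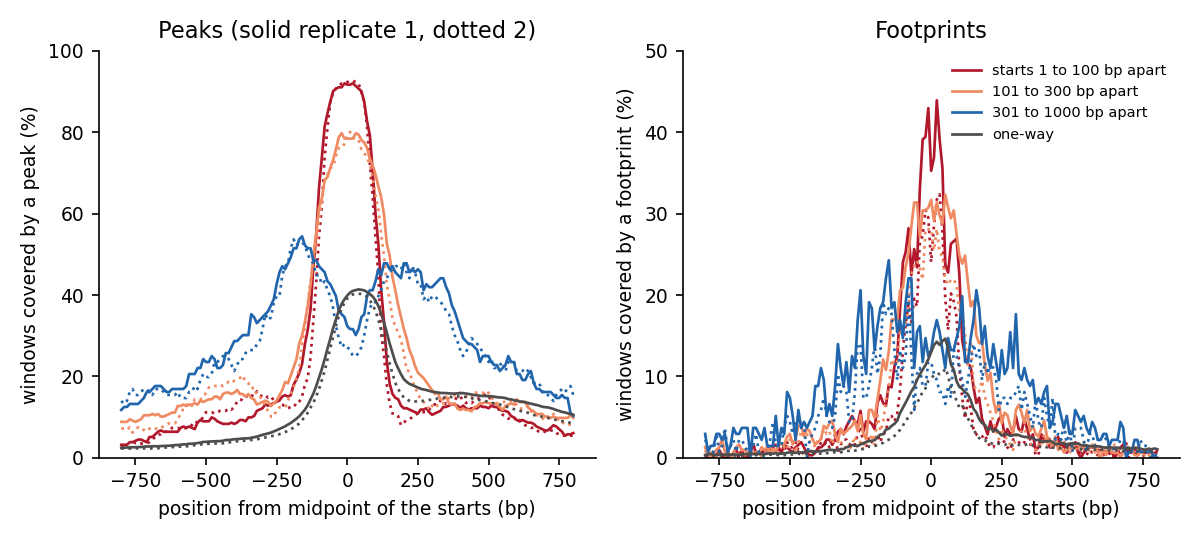
Percent of windows in which a peak (left) or footprint (right) covered each position, by distance from the midpoint of the TSSs in bp, for 3 distance classes and for one-way promoters (position 0 lies 64 bp upstream of their TSS), with replicate 1 solid and replicate 2 dotted. Pairs up to 100 bp apart had a single narrow maximum of about 92% at the midpoint, and pairs over 300 bp apart had a maximum on each side of a dip at the midpoint, the higher one (54.4% and 53.7%) on the minus-strand side.

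Motif matches were counted on both strands in the central 300 bp of each window. That stretch held both TSSs of most divergent pairs, but only the gene's own TSS at one-way windows. Shares were not matched for the number of TSSs or for GC and CpG content, and the part of either in the differences below was not tested. The ETS motif CCGGAAG was found in 28.0% of all divergent and 9.57% of all one-way windows, and among windows open in both in 29.4% against 16.1%. The NF-Y motif CCAAT was in 44.8% and 37.1% of open windows, YY1 AAGATGGCG in 6.04% and 2.93%, the NRF1 palindrome in 3.09% and 1.96%, and CREB/ATF TGACGTCA in 4.49% and 3.44%. The SP/KLF motif GGGCGG was common in both, at 70.1% and 66.9%, as was the E-box CACGTG at 11.1% and 10.2%. Matches that were rarer at open divergent windows were TATAAA (4.21% and 6.15%), AP-1 TGANTCA (3.37% and 4.16%) and the CTCF core (2.53% and 3.72%). TCTCGCGA was found in 5.06% of open divergent and 1.91% of open one-way windows, and a palindromic copy counts on both strands. This string and the CTCF core were searched after they had been seen in the printed footprints. The ZNF143 motif was in 5 open divergent windows (0.702%) and in 0.555% of open one-way windows. In all windows, open or not, the shares for divergent and one-way were 45.1% and 37.9% for CCAAT, 68.0% and 41.8% for GGGCGG, and 4.38% and 12.7% for TATAAA.

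Motifs differed in how often their matches lay in footprints of both replicates. At open divergent windows 22 of 24 NRF1 matches (91.7%) and 28 of 34 CREB/ATF matches (82.4%) had their centre in one, and 28 of 59 TCTCGCGA matches (47.5%) and 463 of 1047 SP/KLF matches (44.2%). For ETS the count was 74 of 267 (27.7%), for CCAAT 93 of 576 (16.1%) and for AP-1 1 of 24. The one-way shares were 89.3% for NRF1, 68.4% for CREB/ATF, 45.7% for TCTCGCGA, 31.7% for SP/KLF, 22.6% for ETS and 13.4% for CCAAT. Longer strings match by base composition less often, so shares of different motifs do not compare the factors. Matches of NRF1, CREB/ATF and TCTCGCGA lay a median of 32.8, 31.2 and 32 bp from the midpoint, and YY1 matches 83.2 bp.

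Some matches went with taller divergent promoters. The 36 with TCTCGCGA had a median mean height of 3.79 against 3.25 for the 676 without, and the 32 with TGACGTCA 3.99 against 3.24. TCTCGCGA was picked from footprints of Med22/Rpl7a and Dnajb4/Fubp1, which were printed for their height and are among the 36. Its comparison is therefore not independent of the heights. For CCAAT the medians were 3.48 with and 3.12 without, and for GGGCGG 3.47 and 2.83. The 209 with CCGGAAG had 3.15 against 3.35, and the 43 with the YY1 motif 3.29 against 3.26. Cct5/Fam173b, which includes a subunit of the CCT chaperonin, held both an NRF1 and a TCTCGCGA match in footprints and had heights of 6.40 and 4.11.

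**Figure D4:**
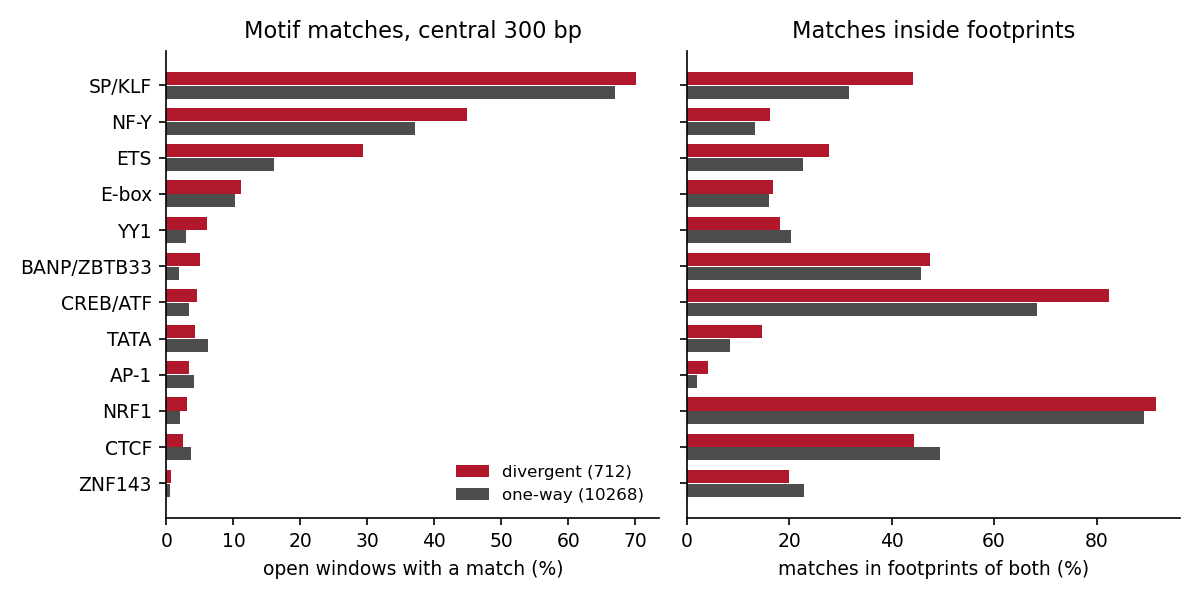
Left, percent of windows open in both replicates whose central 300 bp held a match to each motif, for divergent and one-way promoters; right, percent of those matches whose centre lay in a footprint of both replicates (the string TCTCGCGA is labelled BANP/ZBTB33). ETS matches stood at 29.4% against 16.1%, and NRF1 and CREB/ATF matches were the ones most often in footprints in both classes.

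Hjurp/Trpm8 was the tallest divergent promoter. Hjurp, which loads the centromeric histone CENP-A, and Trpm8, a cold-sensing ion channel, start 28 bp apart, and their peak reached 17.3 in replicate 1 and 14.1 in replicate 2 (mean 15.7 ± 2.21, SD, n = 2). The next was Fbh1/Ankrd16, with a DNA helicase gene, at 11.8 and 8.07. Pdhx/Apip, a pyruvate dehydrogenase component and a methionine salvage enzyme, had 9.37 and 6.87. Dcaf6/Mpc2, the latter a subunit of the mitochondrial pyruvate carrier, had 8.79 and 7.42. The replicates kept the first place clear of the rest, but the ranges of places 3 to 10 overlapped.

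The remainder of the 10 tallest had mean heights from 7.34 to 7.89. Med22/Rpl7a joins a Mediator subunit with a protein of the large ribosomal subunit, and had 9.20 and 6.58. Dnajb4/Fubp1, an HSP40 co-chaperone and a regulator that binds upstream of Myc, had 8.28 and 7.15. Nfya/Oard1 had 8.38 and 6.30 around a peak centred at -199.5 bp from the midpoint, on the Nfya side, and Nfya encodes the subunit of NF-Y that reads CCAAT. Fam53a/Gm9903 had 8.72 and 6.46. No 32-base word of the Hjurp/Trpm8 window occurs elsewhere in the genome.

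The pairs with the most footprints were mostly far apart and above the median height. Windows lengthen with the distance between the TSSs, so a count per window favours distant pairs. Per 100 bases of peak, open pairs over 500 bp apart had 1.78 and 1.36 footprints in replicates 1 and 2, the lowest of the distance classes. Open pairs up to 100 bp apart had 2.21 and 1.65. Ttc9c/Hnrnpul2, 677 bp apart, had 21 and 20 footprints at heights of 5.03 and 3.94. Hnrnpa2b1/Cbx3, which joins an RNA-binding protein with heterochromatin protein HP1 gamma and is a known ubiquitously open element, had 21 and 15, of which 8 in each replicate lay between the TSSs. Srgap2/Fam72a had 19 and 17, Fiz1/Gm44973 21 and 14, and Cdca2/Kctd9, at 96 bp the exception in distance, 19 and 14.

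Gene families fixed by symbol showed which genes take part. Of 78 mitochondrial ribosomal protein genes 18 belonged to a divergent pair (23.1%), of 94 respiratory chain genes 23 (24.5%), of 88 DNA repair and replication genes 23 (26.1%) and of 67 histone genes 27 (40.3%). The share over all protein-coding genes was 6.78%. By contrast 1 of 1466 olfactory and vomeronasal receptor genes, 1 of 100 cytochrome P450 genes, 1 of 61 serpin genes and 0 of 53 keratin genes did.

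All 18 mitochondrial ribosomal pairs were open in both replicates, at a median mean height of 3.21, and 41 of 45 one-way genes of the family (91.1%) were open, at 2.38. Klc4/Mrpl2 was the tallest at 7.79 and 5.15, followed by Mrpl49/Fau at 6.80 and 4.65. All 23 respiratory chain pairs were open at a median of 3.30, beside 86.4% of one-way genes at 3.28. Wdr4/Ndufv3, the latter a complex I subunit, had 6.26 and 4.89, and Tepsin/Ndufaf8, the latter a complex I assembly factor, 7.18 and 3.51. These open shares are near the 94.4% of all divergent windows.

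Of 22 DNA repair and replication pairs 21 were open in both, beside 94.4% of all divergent windows. Their median was 3.26 against 3.24 for one-way genes. Atm/Npat pairs the kinase that answers DNA breaks with a coactivator of histone genes, and had 6.53 and 5.10. Mcm4/Prkdc, a helicase subunit and the catalytic subunit of DNA-dependent protein kinase, had 5.32 and 3.56. Brca1/Nbr1, a homologous recombination gene and an autophagy receptor, had 3.39 and 2.61, with its tallest peak 608.5 and 628.5 bp to the plus-strand side of the midpoint. The TSSs lie 194 bp apart, so this peak was centred inside Nbr1, past the end of the window that it overlapped. Its height is thus not that of the stretch between the TSSs. The exception was Pinlyp/Xrcc1, with a peak of 0.288 in replicate 2 only.

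Ribosomal protein symbols matched 10 pairs, 9 of them open (94.4% for all divergent windows), at a median of 5.34 against 3.32 for one-way genes. The symbol rule also took in Rps6kb1, a kinase gene, and without such kinases 8 of 9 pairs were open at a median of 3.76 against 3.33. Rpl36al/Mgat2 had 7.27 and 5.52. All 12 chaperone pairs, 8 proteasome pairs and 5 tRNA synthetase pairs were open, near the 94.4% of all divergent windows. Their medians were 3.28, 2.68 and 3.16. In these 3 families the one-way medians were 2.85, 3.13 and 2.84, so proteasome pairs were lower than their one-way members. The tallest were Tecr/Dnajb1 after Dnajb4/Fubp1 at 7.74 and 4.73, Ftsj3/Psmc5 and Psmb1/Tbp at 6.15 and 4.73 and at 4.66 and 3.49, and S100pbp/Yars at 5.18 and 3.78.

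Zinc finger genes named Zfp formed 18 pairs, of which 16 were open at a median of 3.36, and their one-way members were 78.0% open at 1.73. Zfp654/Cggbp1 had 7.34 and 5.77 and Zfp277/Dock4 5.94 and 3.85. Of 23 Tmem pairs 22 were open at 3.62 (one-way 61.6% open, at 1.95), led by Deaf1/Tmem80 at 7.93 and 5.66 and Tmem209/Ssmem1 at 7.04 and 5.92. Of 16 solute carrier pairs 15 were open at 3.06 (one-way 56.3%, at 1.54), led by Slc25a32/Dcaf13 at 6.95 and 5.03 and Slc39a7/Rxrb at 6.52 and 4.97. The open counts of the Zfp, Tmem and solute carrier pairs are near the 94.4% of all divergent windows. The single receptor pair, Nt5c3/Vmn1r4, was open at 2.82 and 2.22, whereas 3 of 1464 one-way olfactory and vomeronasal receptor genes were open.

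Histone pairs were the low group. Of 14 pairs with a histone gene, 13 of them joining 2 histone genes, 10 were open in both replicates, 1 in replicate 1 only and 3 in neither. The 10 open pairs had mean heights from 0.528 to 1.57 with a median of 0.959, below the 3.27 of all open divergent windows and the 1.75 of one-way histone genes. Hist1h2bf/Hist1h2ad was the tallest at 1.59 and 1.54, Hist1h2an/Hist1h2bp had 1.44 and 1.13, and Hist1h2ak/Hist1h2bn was the lowest at 0.643 and 0.413. The heights of Hist1h2ak/Hist1h2bn come from different peaks, centred at -279 bp from the midpoint in replicate 1 and at 121 bp in replicate 2. Hist1h2bq/Hist1h2ao and Hist1h2ap/Hist1h2br had no peak at high CpG ratios of 0.923 and 0.906.

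Histone windows also held more repeated sequence than the other pairs. All 32-base words of the windows of Hist1h2bq/Hist1h2ao and Hist1h2ap/Hist1h2br occur elsewhere in the genome, and over the 14 histone pairs a median of 54.0% did, against 0% over the 740 other pairs. Of the 14 divergent windows with over 50% such words, 9 were histone pairs. The handling of reads with several possible origins is not stated, and the part of repeated sequence in the low heights was not tested. Hist1h2bh/Hist1h3f, with 17.4% repeated words, had 1.08 and 0.475, and Bola1/Hist2h2ab, with 10.6%, 1.15 and 0.667. Among the 10 open histone pairs the tallest, Hist1h2bf/Hist1h2ad, had the highest share of repeated words (59.9%), and the closed pair Hist1h2ba/Hist1h2aa had 16.5%.

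Of the 15 pairs listed as well-known two-way promoters, 6 met the distance rule, including those above. Not all were head to head in GENCODE M21. The plus-strand start of Tcp1/Acat2 lay at -45046 bp from the other, and no distance could be taken for H2afx/Dpagt1. Mrps12/Sars2, which joins mitochondrial ribosomal and seryl-tRNA synthetase genes, had 3.57 and 2.07. Col4a4/Col4a3, which encodes basement membrane collagen chains best known from the kidney glomerulus, was among the lowest at 0.526 and 0.588 and ranked 707 of 712. These heights come from different peaks, centred at -84.5 bp from the midpoint in replicate 1 and at 322 bp, inside Col4a3, in replicate 2. Most others had gene bodies that overlapped at their 5′ ends and were not counted, with the plus-strand start at -111 bp from the other in Hspd1/Hspe1 and at -21 bp in Col4a1/Col4a2.

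The 5 lowest open pairs included Hist1h2ak/Hist1h2bn, given above. Sox6/1110004F10Rik, with a developmental transcription factor, had 0.405 and 0.309. Ptchd1/Gm15155 had 0.368 and 0.384, and Trpc5/Rtl4, with an ion channel gene, 0.331 and 0.50. Zfp944/Zfp758 had 0.689 and 0.421, in a window of which 47.7% of 32-base words recur. On X, 16 of 20 pairs were open (80%, against 94.8% of the 734 autosomal pairs) with medians of 1.77 and 1.43, against 3.83 and 2.82 at the 696 open autosomal pairs.

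Pairs closed in both replicates numbered 29. Most of their windows were poor in CpG, with 14 under a ratio of 0.25, 8 from 0.25 to 0.5, 5 from 0.5 to 0.75 and 2 above. Several held genes known from other tissues: Slc27a5, a bile acid enzyme of liver, with Trim28; Smyd1 of striated muscle with Cd8b1 of T cells; and Bhmt2/Dmgdh, both of choline metabolism. Pecam1/Milr1, with the endothelial adhesion gene Pecam1, was closed in both replicates. The closest closed pairs were Best1/Rab3il1 at 36 bp and Rnf151/Rps2 at 53 bp, and the most distant Slc27a5/Trim28 at 922 bp and Gm20075/Gm17190 at 678 bp. Ddx25/Pus3 and Nr2e1/Ostm1 were closed at CpG ratios of 0.720 and 0.746.

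In 13 of the 29 closed pairs, a gene had a peak in both replicates at another annotated transcript start. Ccnt1, the cyclin of the elongation kinase P-TEFb, had 7.34 and 5.44 at a start 3243 bp away. Dgcr2 had 7.58 and 5.38 at 6869 bp, Rps2 of the small ribosomal subunit 5.28 and 4.41 at 1947 bp, and the corepressor gene Trim28 3.75 and 2.46 at 25038 bp. Best1 and Rab3il1 both had one, with 3.84 and 3.89 at 8718 bp and 2.81 and 1.67 at 16524 bp. The outermost 5′ end of a gene body is thus not the open start in these genes. Counting any annotated start, 728 of 754 pairs had at least 1 gene with a peak in both replicates, and 1411 of 1487 genes did (94.9%). By the same count 11401 of 19556 one-way genes had such a peak (58.3%), and 11.4% of those with a closed one-way window, beside 14 of the 58 genes of closed pairs (24.1%).

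The 13 pairs open in a single replicate had peaks below 1, and 8 were found in replicate 1. Hist1h2ae/Hist1h2bg had 0.903 and Ppp1r3d/Fam217b 0.847 in replicate 1, and Aspa/Spata22 0.625 in replicate 2. Duox2/Duoxa2, an oxidase that makes hydrogen peroxide at mucosal surfaces and its maturation factor, had 0.605 in replicate 1. Kirrel2/Nphs1, whose products form the slit diaphragm of kidney podocytes, had 0.229 in replicate 2.

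Heights of the replicates moved together across the open pairs. Over 712 pairs, log2 heights had a Pearson correlation of 0.953 and a Spearman correlation of 0.947, given as a description because the pairs share 2 libraries. Replicate 2 was lower at 693 of 712 pairs (97.3%), with a median log2 ratio of replicate 2 over replicate 1 of -0.45. One-way windows had a median of -0.41 and were lower in 92.6%. After centring on the median of all windows open in both, the divergent median was -0.04 and the SD over pairs 0.23.

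The pairs farthest from this line were mostly low. Trpc5/Rtl4 had a centred log2 ratio of 1.01, and Sirt1/Dnajc12, with a deacetylase gene and heights of 0.703 and 1.03, 0.96. Vipas39/Ahsa1 had 0.62, 2810408A11Rik/Neurl4 0.59 and Pqbp1/Timm17b 0.57. In the other direction Hist1h2bh/Hist1h3f had -0.78, and Dpm1/Mocs3 and Gm20716/Mocs3, which share a plus-strand gene and a peak of 2.43 and 1.08, had -0.76. Exoc2/Gm5447 had -0.70 and Tepsin/Ndufaf8 -0.63. In 3 of these pairs the ratio compared different peaks, since the tallest lay at -605.5 bp from the midpoint in replicate 1 and 457 bp in replicate 2 at Trpc5/Rtl4, at 817.5 and -244.5 bp at Hist1h2bh/Hist1h3f, and at 11 and 601 bp at 2810408A11Rik/Neurl4. At Vipas39/Ahsa1 the tallest peak was 880 bp wide in replicate 1 and 200 bp in replicate 2.

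**Figure D5:**
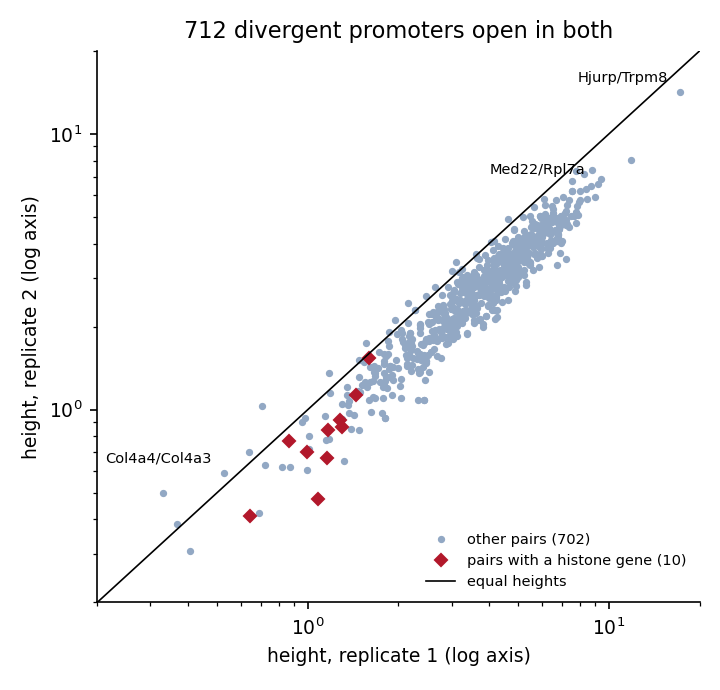
Height of the tallest peak in replicate 1 (x axis, log scale) and replicate 2 (y axis, log scale) for the 712 divergent promoters open in both, with pairs that include a histone gene as diamonds and the line of equal heights. Most points lie below the line, the 10 histone pairs lie between 0.413 and 1.59 on both axes, and Hjurp/Trpm8 stands alone at the top.

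As a check of the tissue, promoter peaks in both replicates were found for 4 of 4 smooth muscle, 3 of 4 fibroblast and 4 of 6 urothelium markers, beside 54.1% of all windows. Of the other urothelium markers, Krt5 and Krt8 had peaks of 0.509 and 0.613 in replicate 2 only. Endothelium and leukocyte markers were open at 1 of 3 each, and hepatocyte markers at 0 of 3, and lists this short are only a rough check. The looser lists held 96518 peaks in replicate 1 and 122870 in replicate 2, with 217816 and 189794 footprints.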

How the data were processed

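DNase-seq of 2 biological replicates was analysed from deposited files with mm10 positions. Per the labels and file descriptions, the authors called peaks, footprints and rates in each sample from its own alignments. Not given in the sources used here were the aligner, callers, versions, thresholds and total read depth. The deposited signal of a peak is its height, and all heights were whole multiples of 1 step per sample within 0.02 steps. The deposited p-value column is a false discovery rate (q-value) listed up to 0.05 in the rate lists and 0.01 throughout in the footprint lists. The same holds for how CAST/EiJ reads were aligned to the C57BL/6J reference.

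Genes came from GENCODE M21 and sequences from GRCm38.p6, the assembly of mm10, whose RefSeq copy was read by coordinate. A window was open where a peak of the looser list overlapped it by at least 1 bp, and heights were not scaled between libraries. A footprinted match had its centre base in a footprint of each replicate. One-way windows of 1130 bp held the first 500 bp of the gene. Named pairs were the 10 tallest, the 5 lowest and 5 with most footprints, the 5 largest ratios each way, the shortest and longest closed pairs, the tallest seen in 1 replicate, listed known pairs, the 2 tallest of each family and those with printed sequences. Others (Pinlyp/Xrcc1, Duox2/Duoxa2, Kirrel2/Nphs1, Bhmt2/Dmgdh, Nr2e1/Ostm1, Cct5/Fam173b and the open starts of Ccnt1, Dgcr2, Rps2 and Trim28) were chosen after their values were seen, as were the repeat, CpG, height class and other start comparisons. The members and lists were chosen with earlier results of these data known. The 95% interval is an exact Poisson interval that assumes each step of height to be a single independent count. Scripts were tested on simulated data and used Python 3.11.15, numpy 2.4.6, pandas 2.3.3, scipy 1.17.1, numba 0.67.0 and matplotlib 3.10.9. A few pairs that the rule names are not reported here. Alternatives covered the peak list, replicate, distance, window, overlap, members, one-way rule, GC content and height measure.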

Additional observations from a re-analysis of the deposited data

How the results depend on the processing

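Of 142 values recomputed for 12 results, 89 moved by less than 1 SD between replicates and 53 by more. For the 9 of the centred log2 ratio, the SD was taken over pairs. Because replicates were close, small moves pass the SD between them. Only the log2 height difference and the centred log2 ratio could change sign, and neither did. The share of divergent promoters open in both replicates was 94.4% and became 93.0% with the stricter lists, 94.9% and 92.1% with TSSs at most 500 and 2000 bp apart, 95% with 1000 bp outside each TSS, 93.3% around each gene's own TSS, 95.4% without Gm or Rik genes, and 85.7%, 98.9% and 98.9% in GC classes 1, 3 and 4. Without one replicate it ranged from 95.1% to 95.5%. A share in a single replicate cannot be lower than the share in both. The rise here, and the like rises of the one-way and footprint shares below, were therefore fixed by the definition. The one-way share of 52.5% became 45.1% with the stricter lists, 50.03% and 55% with 250 and 1000 bp outside each TSS, 51.5% by peak centre, 49.8% with no opposite start of any biotype, and 32%, 80.1%, 89.2% and 90.8% in GC classes 1 to 4, and ranged from 55.1% to 56.0% without one replicate. The one-way median height of 2.01 became 2.43 as a sum of peaks and 1.61 to 2.15 without one replicate.

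The divergent minus one-way log2 height of 0.70 stayed positive in each of these settings: 0.48 with the stricter lists, 0.70 and 0.67 at 500 and 2000 bp, 0.68 and 0.70 with 250 and 1000 bp outside, 0.69 at each gene's own TSS, 0.69 by peak centre, 0.75 with no opposite start, 0.70 with each gene in 1 pair, 0.72 without Gm or Rik genes, 0.68 as a sum of peaks, and 0.75, 0.45, 0.59 and 0.77 in GC classes 1 to 4. It was 0.79 without either replicate. The divergent footprint share of 93.9% became 91.2% at 2000 bp, 92.6% at each gene's own TSS and 95% without Gm or Rik genes, and ranged from 94.3% to 95.1% without one replicate. The one-way footprint share of 50.3% became 47.3% and 53.2% with 250 and 1000 bp outside and 47.7% with no opposite start, and ranged from 52.6% to 54.5%. The one-way median of 5 footprints became 6.5 in GC class 4. The share of tallest peaks centred between the TSSs was 63.7%, and 62.3% with 1000 bp outside, and the median of bases with a listed rate was 784.75, and 557 with 250 bp outside.

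No paired analysis was possible because both samples belong to 1 group. With 2 replicates, spread between animals is poorly known. Total depth is unknown, footprints carry no ranking, and footprint number moves with depth. Windows use the outermost 5′ end of each gene, which other starts can outweigh.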
